A study of Mus musculus with 20 samples.

Results

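PACAP (pituitary adenylate cyclase-activating polypeptide) and the PAC1 receptor are encoded by the mouse genes Adcyap1 and Adcyap1r1. These 2 genes were taken by name from a count table of 12988 genes, and both passed the filter on low counts. They were examined as CPM, each count relative to the TMM-scaled total of its library, in all 20 libraries, with attention to the weight of a single library on Adcyap1. RNA was sequenced from the anterodorsal BNST (bed nucleus, stria terminalis), a small forebrain region microdissected from male and female mice. Mice entered the study at 7 to 9 weeks of age and were kept under control conditions or exposed for 6 weeks to chronic variable mild stress, a schedule of changing mild stressors. Stressed mice were sampled 1 hour after their last stressor, wet bedding.

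The 4 groups were control females, stressed females, control males and stressed males, with 15 mice in each. Tissue of 3 mice was pooled for each library, which gave 5 libraries per group. All mice were anesthetized with ketamine before dissection, controls included. Libraries are named here by sex (F or M), condition (C for control, S for stressed) and replicate number, so that FS2 is the second replicate of stressed females. The labels name no strain and no genetic change for any group. Pooling means that the spread given below is between pools of mice, and p-values measure that spread and not the spread between single animals.

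PACAP is a neuropeptide of the secretin, glucagon and VIP family and acts on 3 receptors. PAC1 binds PACAP with far higher affinity than VIP, while VPAC1 and VPAC2, encoded by Vipr1 and Vipr2, bind both peptides. PAC1 couples to Gs and so to adenylyl cyclase, and also to Gq and phospholipase C, and the third intracellular loop of the receptor can carry alternative cassettes that alter this coupling. In the BNST, PACAP signalling is known for its part in anxiety-like behaviour and in the response to repeated stress, and much of the peptide found there lies in axons that arrive from other regions. The mRNA of a neuropeptide lies mainly in the cell bodies that make it.

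In the GENCODE M21 annotation of GRCm38 (mm10), Adcyap1 spans chr17:93199017-93206537 on the plus strand and has 5 annotated transcripts. Adcyap1r1 spans chr6:55451978-55501451 on the plus strand and has 8 annotated transcripts. No other annotated gene overlaps either of them. The stretch of Adcyap1 coding sequence that yields PACAP is shown first because it is the peptide itself that names the gene. It spans 114 bases, which encode residues 131 to 168 of a precursor of 175 residues, and was read from the annotated transcript Adcyap1-201. Capitals mark the 81 bases that encode the shorter peptide of 27 residues, and the whole run encodes the longer peptide of 38 residues.

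PACAP coding sequence: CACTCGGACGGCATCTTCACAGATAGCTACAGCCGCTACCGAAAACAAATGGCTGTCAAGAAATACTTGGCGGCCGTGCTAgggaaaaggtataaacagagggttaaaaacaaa

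Adcyap1r1 transcripts differ by cassette exons of 84 bases each, and both are shown because gene counts sum over transcripts with and without them. The first lies at chr6:55487659-55487742 and the second at chr6:55491227-55491310. Each is present in 2 of the 6 full-length annotated transcripts. The receptor values given below therefore cover all these isoforms together, and their proportions were not analysed here.

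Adcyap1r1 first cassette exon: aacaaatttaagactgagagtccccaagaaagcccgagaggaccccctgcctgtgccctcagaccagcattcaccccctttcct

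Adcyap1r1 second cassette exon: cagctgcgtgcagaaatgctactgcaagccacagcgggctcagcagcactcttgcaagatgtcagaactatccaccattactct

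The 250 bases upstream of an annotated RefSeq start (GRCm38.p6) of each gene are shown too. Adcyap1 varied widely between libraries and Adcyap1r1 did not, but a link between this and the upstream sequences was not tested. Both windows lie on the plus strand, at chr17:93198767-93199016 for Adcyap1 and at chr6:55451728-55451977 for Adcyap1r1. They were searched on both strands for the cAMP response element TGACGTCA and for its 5-base core TGACG, which is contained in the longer motif. Capitals mark the only match, a TGACG at position −91 from the Adcyap1 start used here.

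Adcyap1 upstream window: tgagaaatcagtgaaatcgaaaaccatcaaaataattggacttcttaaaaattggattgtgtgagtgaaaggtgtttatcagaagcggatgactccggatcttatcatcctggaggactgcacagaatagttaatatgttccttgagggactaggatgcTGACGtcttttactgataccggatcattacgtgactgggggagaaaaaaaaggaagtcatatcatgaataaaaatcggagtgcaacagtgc

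Adcyap1r1 upstream window: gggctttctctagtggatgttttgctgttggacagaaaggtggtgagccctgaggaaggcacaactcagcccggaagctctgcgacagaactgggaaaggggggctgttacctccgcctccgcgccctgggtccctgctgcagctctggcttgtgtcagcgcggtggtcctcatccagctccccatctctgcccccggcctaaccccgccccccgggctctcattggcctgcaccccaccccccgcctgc

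The core motif occurred in 17.8% of 32851 RefSeq windows of the same length, and the full element in 1.55%. Neither window held the full element. RefSeq holds a second, overlapping window for Adcyap1, at chr17:93198918-93199167, which holds the same TGACG, no full element and a GC content of 42.4%. GC content was 39.6% in the Adcyap1 window and 65.6% in the Adcyap1r1 window.

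Library totals ran from 2707881 counts in FC4 to 33595388 in MS4. Markers of BNST neurons were detected in every library (12 of 12, led by the GABA-synthesis gene Gad2 and the enkephalin precursor Penk), with a summed level between 3093 CPM in FS2 and 3732 CPM. FS2 had the lowest summed level of this list. Penk ranked 2 of 20 in MS3, the library with the largest sum of striatal markers, so the list was not shown to be particular to the BNST. Markers of striatal neurons, of the thalamus and of the hypothalamus were detected too, and none of the measured markers was at 0 in any library. FS2 and FC3 ranked first and second of the 20 libraries in the summed thalamic and glutamatergic markers, though not in the striatal ones. They also ranked first and second in Adcyap1 itself. The contrasts of Adcyap1 are given with and without them because FS2 had been named beforehand for its weight on this gene and FC3 came next. Leaving out the libraries highest in Adcyap1 lowers the female group means of this gene by the choice itself.

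Adcyap1 was a low-abundance transcript in these libraries, with a mean level of 6.52 ± 3.45 CPM (SD, n = 20), above 11.8% of the genes in the table. In control females the 5 libraries held 4.95, 5.21, 13.1, 8.28 and 5.56 CPM. Those of stressed females held 3.73, 16.2, 5.17, 4.56 and 2.86 CPM. One library in each female group, FC3 and FS2, lay above all others of the study. Control males had 6.57, 4.17, 4.05, 8.05 and 9.91 CPM, and stressed males 8.52, 7.22, 1.96, 5.49 and 4.82 CPM. The male groups overlapped each other and both female groups, and MS3 was the lowest library of all 20.

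The counts behind these levels were between 22 in FC4 and 467 in FS2. Counting error alone allowed 14.8 to 17.7 CPM in FS2, 1.49 to 2.54 CPM in MS3 and 5.19 to 12.5 CPM in FC4 (exact Poisson 95% intervals, which cover counting error only). The 8.26-fold range from MS3 to FS2 was thus far wider than counting error in those 2 libraries, whereas the level in FC4 was known only loosely.

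Group means of Adcyap1 were ordered control females, control males, stressed females and stressed males, at 7.42 ± 3.44, 6.55 ± 2.52, 6.50 ± 5.49 and 5.60 ± 2.50 CPM (SD, n = 5 each). The ranges of all 4 groups overlapped, and each step in this order was smaller than the SD of either neighbour. In bulk tissue, fewer cells that express Adcyap1 and less Adcyap1 RNA per cell cannot be told apart.

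**Figure D1:**
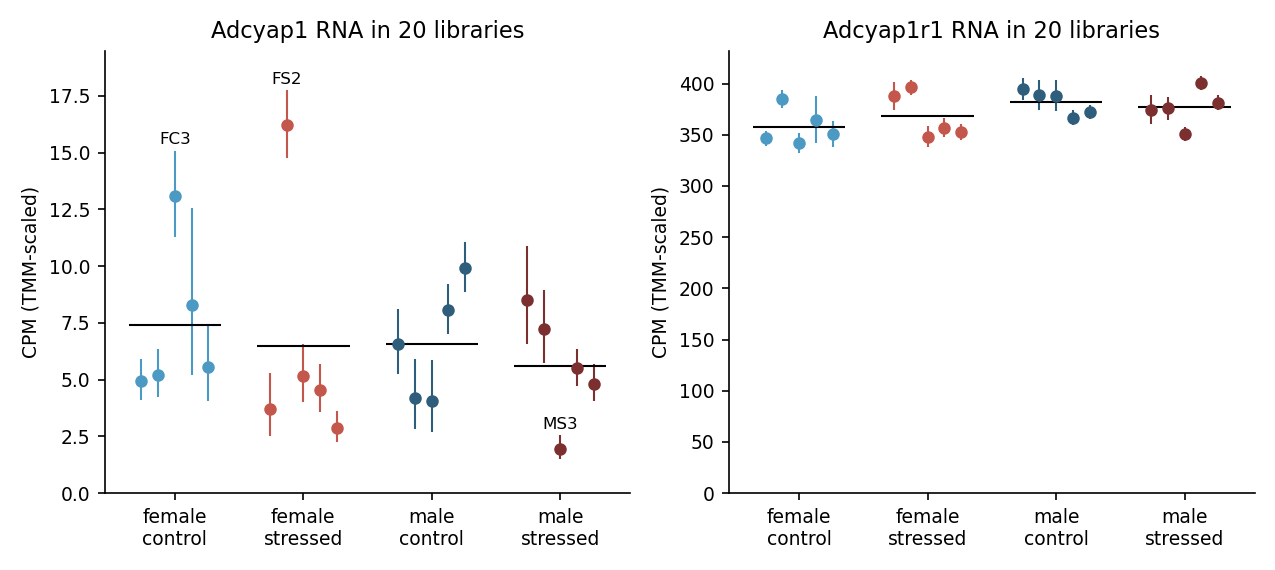
CPM of Adcyap1 and of Adcyap1r1 (linear axes from 0) in each library by group, with points for libraries, vertical bars for exact Poisson 95% intervals of the counts and horizontal lines for group means. Adcyap1 reached 16.2 CPM in FS2 and 13.1 CPM in FC3 against a range from 1.96 to 9.91 CPM in the other libraries, while Adcyap1r1 stayed between 342 and 401 CPM throughout.

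FS2 alone supplied 49.8% of the summed Adcyap1 CPM of the stressed females. Its level was 3.91 times the median of the other 4 libraries and 3.13 times the highest of them. Without it, the group mean was 4.08 ± 1.01 CPM (n = 4) in place of 6.50 ± 5.49. The mean with FS2 lay above every one of the other 4 libraries of that group. FC3 weighed less on control females, with 35.3% of their summed CPM, and its removal brought their mean from 7.42 to 6.00 ± 1.54 CPM (n = 4). The same library FS2 supplied 21.5% of the summed Adcyap1r1 CPM of its group, close to an even share of 5 libraries.

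FS2 was not a library in which most genes were extreme. It was the highest of the 20 libraries for 452 genes, or 3.48% of the table, and the other 19 libraries were highest for between 155 and 1387 genes, with a median of 602. The level of Adcyap1 in FS2 was 1.24 times that of the next library, FC3. With Adcyap1 included, 17 genes in FS2 reached this ratio to the next library, rank 3 of 20 and shared with FS5. The other 19 libraries had 0 to 74 such genes, with a median of 3. In FS2, 16 genes had a larger ratio than Adcyap1. They were led by C1ql2, a secreted C1q-like synaptic protein, at 8.99 CPM against 3.90 CPM in the next library, and Oxt, the oxytocin precursor, at 28.2 against 13.5 CPM. Tcf7l2, a transcription factor high in thalamic neurons, reached 28.1 CPM in FS2 against 18.5 CPM in FC3. Slc17a6, the vesicular glutamate transporter VGLUT2, reached 72.2 CPM in FS2 against 53.9 CPM in FC3. The rest of the first 10 were Sfrp5, Tnxb, Eps8l1, Spag17, H2-Q2 and Cbln2, with ratios between 1.31 and 1.48.

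Adcyap1r1 was an abundant transcript, at 371 ± 18.8 CPM (SD, n = 20), above 97.0% of genes. Its counts ran from 967 in FC4 to 13576 in MS4. Control females held 346, 385, 342, 364 and 351 CPM, and stressed females 388, 396, 348, 357 and 353 CPM. In control males the receptor was at 395, 389, 388, 366 and 372 CPM, and in stressed males at 374, 376, 351, 401 and 381 CPM. All 4 groups overlapped, and the highest library exceeded the lowest by only 1.17-fold.

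The groups of neither member were free of overlap in any pairwise contrast, which was met by 1.22% of all genes for stress in females, 4.3% for the same contrast in males, 3.97% between the control groups and 1.27% between the stressed groups. Group means of Adcyap1r1 were highest in control males at 382 ± 12.1 CPM, followed by stressed males at 377 ± 17.9, stressed females at 368 ± 22.0 and control females at 357 ± 17.3 CPM (SD, n = 5 each). Neighbours in this order differed by less than the SD of either group. Expressed per kilobase of annotated exon, Adcyap1r1 stood at 56.2 ± 2.85 CPM per kilobase and Adcyap1 at 1.73 ± 0.915 CPM per kilobase (SD, n = 20). Their ratio ran from 14.0 in FS2 to 102 in MS3, with a median of 39.2. The extremes of that ratio fell in the libraries with the highest and the lowest Adcyap1, and the receptor level itself differed little between them.

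The spread between replicates set the members apart from each other. The biological coefficient of variation estimated for Adcyap1 within groups was 44.4%, rank 5 of 12988 genes, where genes of its abundance had a trend value of 12.1%. Without FS2 it was 34.2% (rank 10), and without FS2 and FC3 it was 30.4% (rank 17). Adcyap1 thus remained among the most variable genes of the table when both libraries were left out. For Adcyap1r1 the same measure was 5.86%, rank 10634, against a trend of 8.29%, and it was 5.61% without both libraries. The other PACAP receptors lay between the members, with 18.2% for Vipr1 and 14.1% for Vipr2.

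**Figure D2:**
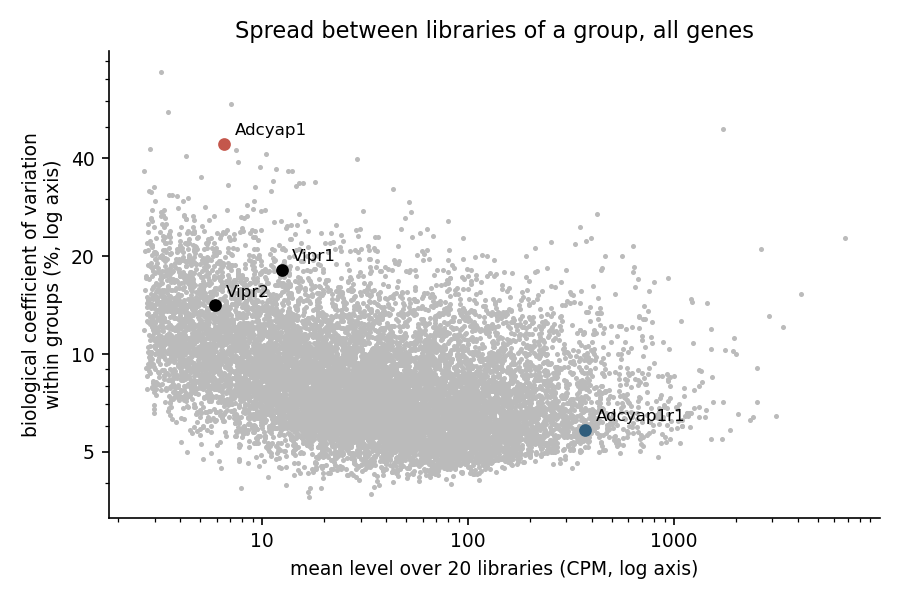
Biological coefficient of variation within groups (percent, log axis) against mean level (log axis) for all 12988 genes, with the PACAP family marked. Adcyap1 at 44.4% lies above the trend of genes of its level (12.1%) and Adcyap1r1 at 5.86% below its own (8.29%).

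Whether chronic stress altered PACAP or PAC1 mRNA, and whether it did so differently in males and females, was tested with edgeR's quasi-likelihood test over all genes with Benjamini-Hochberg adjustment. Neither member was called at an adjusted p of 0.05 in any of the 6 contrasts (0 of 2, also 0 of 2 at an unadjusted p of 0.05, and 0 of 2 with DESeq2 and with limma-voom). DESeq2 gave no adjusted p for Adcyap1 in the average over the sexes. The share of all genes called was 0% for stress in females, 0.0077% for stress in males, 0.747% for control males against control females and 0.077% for stressed males against stressed females. It was 0% for the sex by stress interaction and 0% for stress averaged over the sexes. Very few genes passed in any of these contrasts, so the members did not differ in this from nearly all of the table.

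In females, the log2 fold change of Adcyap1 with stress was −0.06 (SE 0.43, 95% interval −0.95 to 0.83, edgeR adjusted p = 0.999). Without FS2 it was −0.85 (SE 0.37, interval −1.62 to −0.09, edgeR adjusted p = 0.454), and stressed females were lower than controls in the mean. Without FC3 it was 0.34, with the sign turned, and it also turned, to values between 0.02 and 0.17, without any one of FS1, FS3, FS4 or FS5. Without both libraries it was −0.45 (SE 0.35, edgeR adjusted p = 0.955). FS2 and FC3, 1 library on each side of the contrast, moved the estimate for females furthest. None of these versions passed the adjusted threshold, and the interval over all libraries covers folds from 0.518 to 1.78.

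In males, Adcyap1 had a log2 fold change of −0.46 with stress (SE 0.43, interval −1.35 to 0.42, edgeR adjusted p = 0.666). It was −0.47 without FS2 and −0.47 without FS2 and FC3. The sign was negative in all 20 fits that left out 1 library, which ranged from −0.61 without MS1 to −0.21 without MS3. It turned to 0.64 when the mean log2 CPM of the striatal markers was a covariate, as described below. Averaged over the sexes, the change was −0.26 (SE 0.30, interval −0.89 to 0.37, edgeR adjusted p = 0.768). Without FS2 this average was −0.66 (SE 0.24, interval −1.17 to −0.16, edgeR adjusted p = 0.146), and without FS2 and FC3 it was −0.46 (SE 0.22, interval −0.93 to 0.01, edgeR adjusted p = 0.372). Without FC3 alone it was −0.06 (SE 0.30, interval −0.69 to 0.57, edgeR adjusted p = 0.998). The average was negative in each of these versions, though near 0 without FC3, and was not called in any of them. Leaving out FS2, the highest stressed library, lowers the average by the choice itself.

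Sex differences in Adcyap1 were within their errors in the fit of all libraries. Males minus females gave −0.03 in controls (SE 0.44, edgeR adjusted p = 0.992) and −0.43 in stressed mice (SE 0.42, edgeR adjusted p = 0.877). Across the alternatives the difference in controls lay anywhere from −0.92, with the striatal marker level as a covariate, to 0.38, without FS2 and FC3. Without FS2 the difference in stressed mice was 0.36, with the sign turned, and without FC3 the difference in controls was 0.37. The interaction was −0.40 (SE 0.61, interval −1.66 to 0.85, edgeR adjusted p = 0.881), 0.38 without FS2 and −0.02 without FS2 and FC3. No difference between the sexes in the stress response of Adcyap1 could be resolved with these libraries.

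The receptor was measured far more precisely. The fitted stress difference of Adcyap1r1 on the log2 scale was 0.04 in females (SE 0.05, interval −0.06 to 0.15, edgeR adjusted p = 0.880) and −0.02 in males (SE 0.05, interval −0.12 to 0.08, edgeR adjusted p = 0.928). As folds, these intervals run from 0.960 to 1.11 in females and from 0.919 to 1.06 in males. The interaction was −0.06 (SE 0.07, edgeR adjusted p = 0.808), and stress averaged over the sexes was 0.01 (SE 0.03, edgeR adjusted p = 0.938). PAC1 mRNA was thus measured to within narrow bounds in both sexes, in contrast to the wide intervals of its ligand.

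The clearest contrast of Adcyap1r1 was between control males and control females. The male level was 1.07-fold the female level (interval 0.995 to 1.15, log2 0.10, SE 0.05, edgeR adjusted p = 0.374). Every control male library lay above 4 of the 5 control female libraries, and FC2 at 385 CPM lay within the male range. In an exact two-sided permutation test of the log2 CPM the unadjusted p was 0.0317, and 0.317 after adjustment over 10 such tests (the smallest p the 252 splits allow is 0.00794). The other exact permutation tests of the members gave p from 0.317 to 0.913. In stressed mice the sex difference was 0.03 (SE 0.05, edgeR adjusted p = 0.927).

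**Figure D3:**
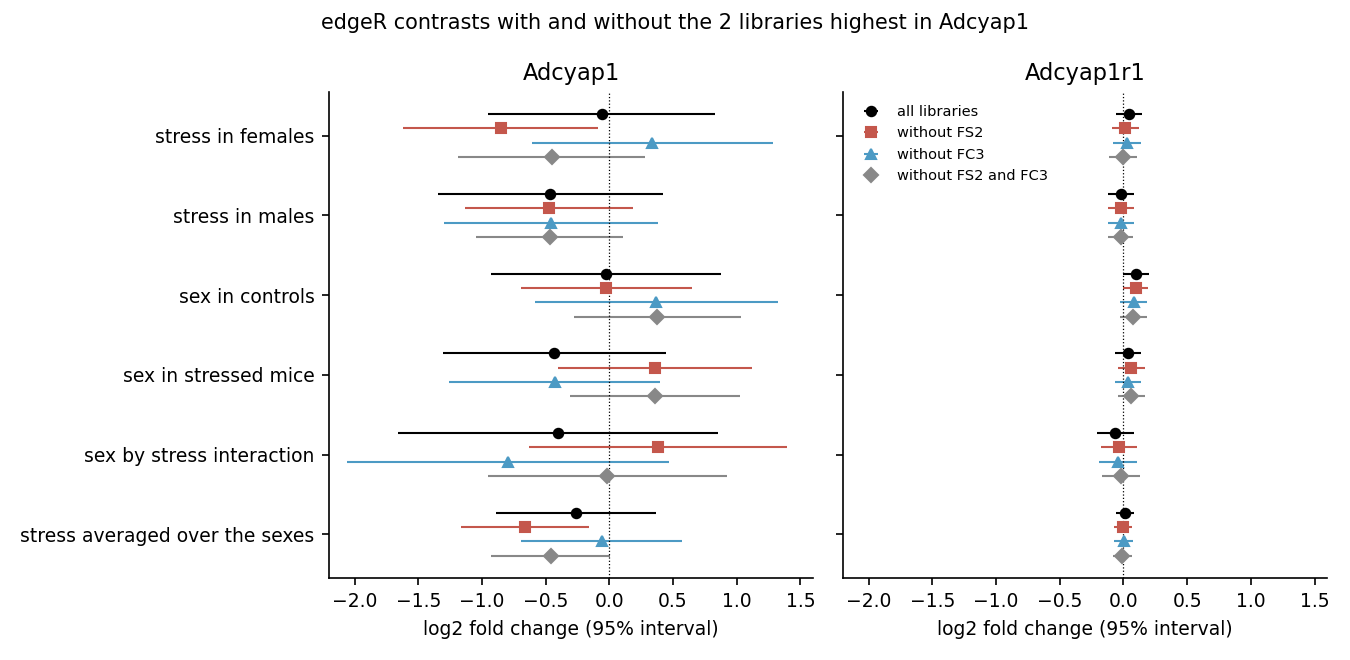
Log2 fold changes of Adcyap1 and Adcyap1r1 with 95% intervals from edgeR in the tested contrasts, over all libraries and with FS2, FC3 or both left out. The female stress estimate of Adcyap1 moves from −0.06 to −0.85 without FS2 and to 0.34 without FC3, while the estimates of Adcyap1r1 stay close to 0.

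Ligand and receptor levels did not move together across libraries. Pearson's r between their log2 CPM was 0.14 (permutation p = 0.561) and Spearman's rho 0.03 (permutation p = 0.897) over the 20 libraries. Without the 2 libraries farthest from the Adcyap1 median, FS2 and MS3, r was −0.19 (permutation p = 0.447). Without FS2 alone r was −0.016. For deviations from the group means r was 0.24 (permutation p = 0.305). These are versions of 1 relation, and none of those tested passed a threshold of 0.05 before any adjustment.

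The genes whose pattern was most like that of Adcyap1 across the 20 libraries were Olfm1 (r = 0.931), Cdk18 (0.918), Cbln1 (0.917), Nr2f2 (0.913) and Agt (0.910). Olfm1 encodes a secreted olfactomedin protein, Cbln1 a synaptic organizer of the cerebellin family, Nr2f2 the nuclear receptor COUP-TFII and Agt angiotensinogen. All 5 were lowest in MS3, and Olfm1, Cbln1 and Agt were highest in FS2. Without FS2, the 5 closest genes over 19 libraries were Cdk18, Nr2f2, Olfm1, Oxr1 and Cbln1, so 4 of the 5 were shared. Most opposed were Crym (−0.845), Top2a (−0.831) and Septin11 (−0.827), and without FS2 Top2a, Nin and 1700003D09Rik. In all, 330 genes (2.54% of the others) had r over 0.7 with Adcyap1, and 410 (3.16%) without FS2. These correlations are over libraries that differ in depth and in the marker levels given below, and they are a description without a test.

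For Adcyap1r1 only 19 genes (0.146%) had r over 0.7. The closest were Wdr6 (0.790), Oprl1, the nociceptin receptor gene (0.775), Dse (0.758), Gtf2e1 (0.756) and Arhgap36 (0.750). Without FS2, Dse, Oprl1 and Wdr6 remained the 3 closest, followed by Asb1 and Pnck. Gm15631 (−0.828), Etv1 (−0.780) and Pcdhb6 (−0.774) were most opposed.

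Markers of other regions and of glia differed between libraries along with Adcyap1. Slc17a6, which marks glutamatergic neurons of the thalamus and hypothalamus and is absent from most BNST neurons, had r = 0.878 with Adcyap1 (rank 8 of all genes) and 0.837 without FS2. It was highest in FS2 (72.2 CPM) and FC3 (53.9 CPM) and lowest in MS3 (10.02 CPM), as Adcyap1 was. The list was not uniform: Slc17a7 (VGLUT1) was at 4.62 CPM in both FS2 and FC3, its highest level, whereas Slc17a8 (VGLUT3) was at its lowest of all 20 libraries in FS2, at 6.98 CPM. Summed over the glutamatergic markers, of which 3 of 3 were measured, the level was 33.0 to 70.9 CPM in control females and 29.4 to 83.8 CPM in stressed females (29.4 to 39.4 without FS2). In control males it was 40.8 to 56.7 CPM and in stressed males 25.7 to 40.3 CPM.

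For the thalamic list, 7 of 10 markers were measured, and 4 of them were highest in FS2. Their sum was 209 to 307 CPM in control females, 195 to 336 in stressed females (195 to 210 without FS2), 200 to 248 in control males and 173 to 217 in stressed males. FS2 ranked first and FC3 second of the 20 libraries. The calretinin gene Calb2 was at 143 CPM in FS2, 134 in FC3 and 35.4 in its lowest library, and was the largest single part of the FS2 and FC3 sums. The list was not uniform in FC3, where 5 of the 7 markers ranked in the top 3 of 20. Lef1 ranked 8 and Synpo2 18 there. Of the hypothalamic list 5 of 13 markers were measured, with sums of 32.9 to 55.0 CPM in control females, 26.8 to 84.0 in stressed females (26.8 to 32.7 without FS2), 40.6 to 56.7 in control males and 23.0 to 48.2 in stressed males. Septal markers (8 of 8 measured) did not set FS2 apart, since none of them was highest there and its sum ranked 4 of 20. Tbr1, the only measured gene of 5 cortical markers, was at 24.1 CPM in FS2, 20.9 in FC3 and 4.16 in MS3.

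Striatal markers ran the other way. All 14 were measured, with the adenylyl cyclase Adcy5 and the phosphodiesterase Pde10a among the most abundant, and their sum was largest in MS3 (6639 CPM) and FS5 (6617 CPM), the 2 libraries with the least Adcyap1. It ranked 18 of 20 in FS2 and 15 of 20 in FC3. The sum was 3372 to 5903 CPM in control females, 3203 to 6617 in stressed females (4082 to 6617 without FS2), 3060 to 3861 in control males and 4388 to 6639 in stressed males, so that the male groups did not overlap. The covariate used was not this sum but a striatal score, the mean log2 CPM of the 14 markers, which weights each gene equally. With it, the log2 fold change of Adcyap1 with stress in males was 0.64 in place of −0.46. The interaction was 0.80 in place of −0.40 and the average over the sexes 0.24 in place of −0.26. The difference between control males and control females became −0.92 in place of −0.03 (edgeR adjusted p = 0.196). None of these was called by edgeR. Because the striatal sums of the male groups did not overlap, stress and striatal level cannot be told apart in males. Glial lists were also uneven. The summed astrocyte markers (6 of 6 measured) were highest in FC3 (1728 CPM) and FS2 (1702 CPM) and lowest in FS5 and MS3 (both 1464 CPM), with 1539 to 1728 CPM in control females, 1464 to 1702 in stressed females (1464 to 1631 without FS2), 1561 to 1644 in control males and 1464 to 1682 in stressed males. The oligodendrocyte sum (8 of 8 measured) was highest in FC3 (12838 CPM) and lowest in MS3 (7166 CPM), and ranked 7 of 20 in FS2. It was 8925 to 12838 CPM in control females, 8414 to 10314 in stressed females (8414 to 9931 without FS2), 8153 to 12633 in control males and 7166 to 11125 in stressed males. The part of cells from neighbouring regions, or of glia, in the Adcyap1 levels was not tested.

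**Figure D4:**
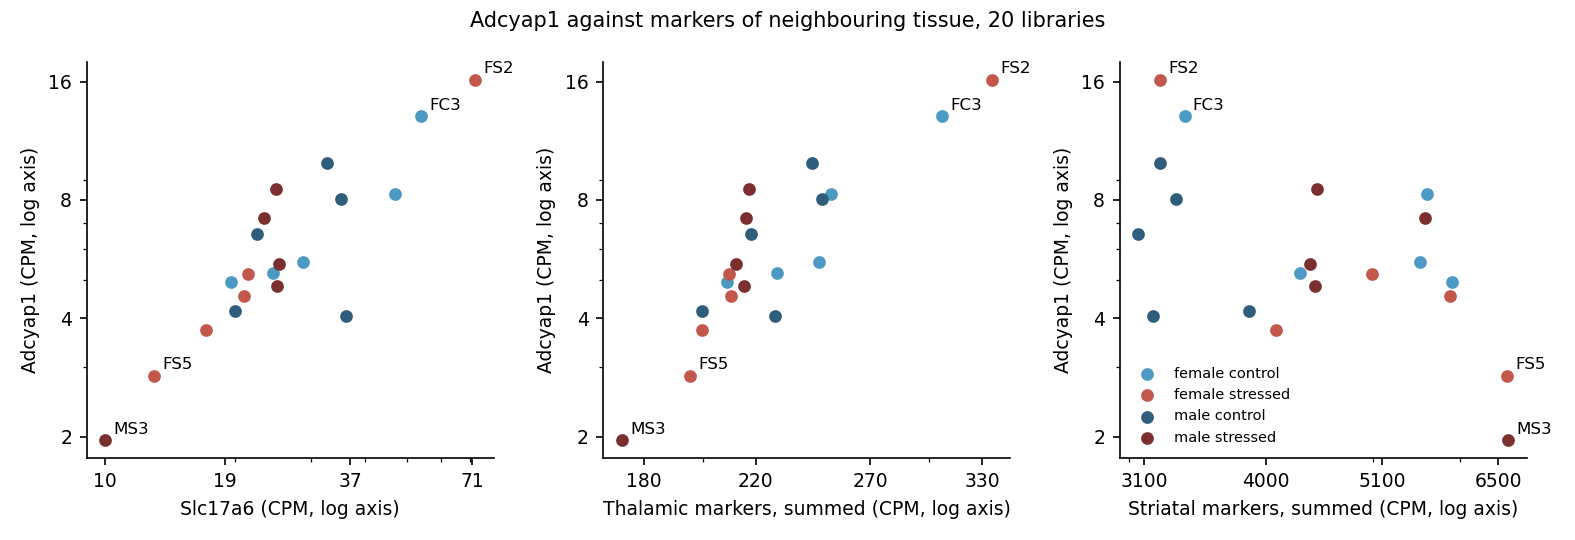
Adcyap1 level (CPM) in each of the 20 libraries against Slc17a6, the summed thalamic markers and the summed striatal markers (CPM, all axes log), coloured by group. FS2 and FC3 sit at the top for Slc17a6 and the thalamic list, and MS3 and FS5, with the least Adcyap1, have the largest striatal sums.

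Of the wider PACAP family, 4 of 13 listed genes had a row in the table, the members and the receptors Vipr1 and Vipr2. The other 9 listed genes, among them Vip, were not analysed here. Per kilobase of exon, Vipr1 stood at 2.15 ± 0.569 and Vipr2 at 1.32 ± 0.325 CPM per kilobase (SD, n = 20), so that PAC1 was by far the most abundant of the 3 PACAP receptors at the level of mRNA. Vipr2 overlaps the predicted gene Gm20658, and since the counting was not stated to use strand, reads from these genes could not be told apart.

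Vipr1 was at 12.1 ± 2.34 CPM in control females, 15.2 ± 4.66 in stressed females, 9.77 ± 1.20 in control males and 12.7 ± 2.02 in stressed males (SD, n = 5 each). The stress difference averaged over the sexes was 0.37 on the log2 scale (SE 0.13, edgeR adjusted p = 0.278), with 0.34 in females and 0.39 in males. It did not pass the adjusted threshold. Vipr2 was at 4.71 ± 0.729 CPM in control females, 5.93 ± 1.10 in stressed females, 7.27 ± 1.30 in control males and 5.69 ± 1.54 in stressed males. Control males and control females did not overlap for Vipr2, with a male minimum of 6.25 CPM against a female maximum of 5.79 CPM, as was so for 3.97% of all genes. The difference between control males and females was 0.57 (SE 0.17, edgeR adjusted p = 0.106) and was not called.

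The genes around the receptor were taken from 6 lists of 73 genes, of which 62 were measured: the family, peptide maturation, G proteins with cyclases and phospholipases, cAMP effectors, phosphodiesterases and cAMP-induced genes. By edgeR, 1 of the 62 was called in any contrast. That call was for sex in controls, where 97 of all 12988 genes (0.747%) were called. Pcsk2, a prohormone convertase that cleaves neuropeptide precursors, was lower in control males than in control females, at 160 ± 11.4 against 214 ± 25.8 CPM (log2 −0.42, SE 0.10, edgeR adjusted p = 0.0400). Stressed females and stressed males held 215 ± 29.2 and 213 ± 24.6 CPM. In stressed against control males Pcsk2 gave 0.41 (SE 0.09, edgeR adjusted p = 0.0871), which was not called. The call in controls was lost with limma-voom, and also without any one of FC1, FC4, FC5, MC1, MC2, MC3, MC4 or FS3, where 0 of 62 genes passed.

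In females, 0 of 62 genes were called for stress, with 0 by DESeq2. At an unadjusted edgeR p under 0.05 there were 4 (6.45%), near the 7.51% of all genes. The median log2 fold change over the 62 was 0.03, beside −0.001 over all genes. The smallest p was that of Per1, a clock gene with cAMP response elements, which averaged 88.9 ± 16.1 CPM without stress against 122 ± 14.5 CPM with it (log2 0.46, SE 0.11, edgeR adjusted p = 0.389). It was followed by Sik1, a salt-inducible kinase (0.20), and Gnaq, the Gq alpha subunit (−0.11). Of the 12 cAMP-induced genes 10 were above 0, with a median of 0.13, beside 6433 of all 12988 genes above 0.

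In males, 0 of 62 were called for stress by edgeR, while 28 of the 62 (45.2%) had an unadjusted edgeR p under 0.05 beside 15.5% of all genes. DESeq2 called 7 of the 62. The DESeq2 share of all genes called is not given here, so this count has no base rate beside it. The smallest adjusted p belonged to Adcy7, an adenylyl cyclase that went from 20.9 ± 2.69 to 14.2 ± 1.54 CPM (log2 −0.54, SE 0.12, edgeR adjusted p = 0.0806). It was followed by Pcsk2 and by Rapgef4, a cAMP-activated exchange factor for Rap (0.35, SE 0.09, edgeR adjusted p = 0.0871). Pde10a and Adcy5, both also on the striatal list with Gnal, gave 0.76 and 0.53 and were not called by edgeR. The striatal sum of the male groups given above did not overlap either, and its part in these differences was not tested. The cAMP-induced genes split evenly, with 6 of 12 above 0 and a median of −0.05.

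For sex in controls, all 12 cAMP-induced genes were above 0, with a median of 0.23 and higher values in males, beside 6505 of all 12988 genes above 0. None of the 12 was called by edgeR. Of all 62 listed genes, 21 (33.9%) had an unadjusted edgeR p under 0.05 beside 15.3% of all genes. DESeq2 called 9, again with no DESeq2 share of all genes to set it against. Sik1 gave 0.36 (edgeR adjusted p = 0.0504) and Crh, corticotropin-releasing hormone, 0.58 (edgeR adjusted p = 0.0507). Crh stood at 24.4 ± 1.10 CPM in control males and 16.6 ± 1.24 CPM in control females. The interaction of the same 12 genes had a median of −0.33, with 1 of 12 above 0 and 0 called (3 at an unadjusted edgeR p under 0.05, and 1 of the 62 genes called by DESeq2). Both contrasts contain the same control libraries, so these values do not count as separate evidence.

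In the remaining contrasts 0 of 62 listed genes were called by edgeR and 0 by DESeq2 (for sex in stressed mice 3, or 4.84%, had an unadjusted edgeR p under 0.05 beside 7.06% of all genes, and for stress averaged over the sexes 20, or 32.3%, beside 12.7%). The smallest p values for sex in stressed mice belonged to Adcy7 (−0.30), Rapgef4 (0.19) and Crtc2, a CREB coactivator (−0.16). For the interaction, where 17 of the 62 (27.4%) had an unadjusted edgeR p under 0.05 beside 10.4% of all genes, they belonged to Rapgef4 (0.53), the cyclase Adcy1 (0.37) and Adcy7 (−0.56), and the lowest edgeR adjusted p was 0.195. Averaged over the sexes, Map2k1, which encodes the kinase MEK1, gave 0.14, Per1 0.25 and Pcsk2 0.21, with a lowest edgeR adjusted p of 0.256.

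**Figure D5:**
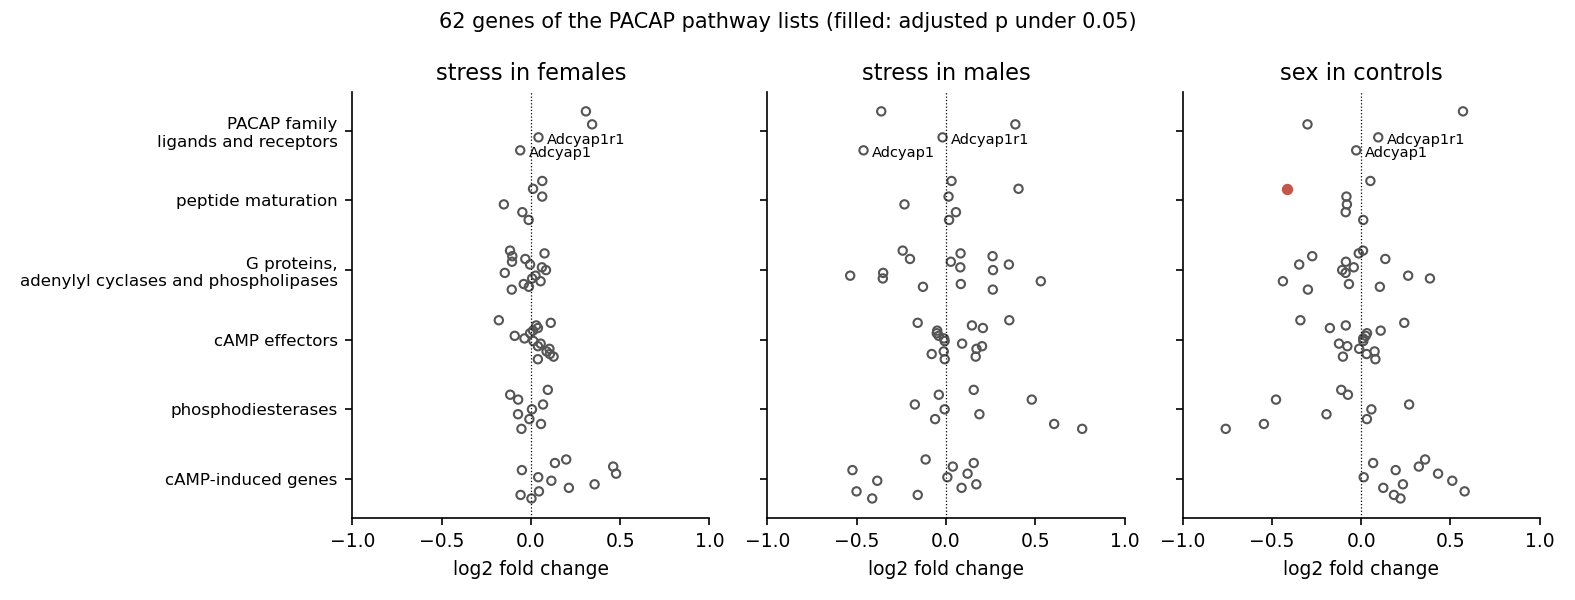
Log2 fold changes of the 62 measured genes of the 6 lists for stress in females, stress in males and sex in controls, 1 point per gene, filled where called. Pcsk2 at −0.42 for sex in controls is the only gene called by edgeR, and the 12 cAMP-induced genes all lie above 0 in that contrast.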

How the data were processed

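The deposited table holds raw counts per gene, which the authors made from RNA-seq reads. The submitters' processing notes name STAR, featureCounts and mm10. Versions, the gene annotation used for counting and the strand setting were not given in the sources used here. The lowest row total was 1002 counts. Library totals were 2707881 to 33595388 counts, and exact Poisson intervals cover counting error only.

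The 2 members and all gene lists were chosen with earlier results of these data known. Counts were fitted with edgeR 4.0.16 (R 4.3.3; TMM factors, filterByExpr, which kept all 12988 genes, and the quasi-likelihood test) in 1 model of 4 group means, with Benjamini-Hochberg adjustment over 12988 genes and a call at 0.05. Standard errors are the fold change divided by the square root of F. CPM are counts over library totals scaled by the TMM factors, and log2 CPM used a prior count of 2. The genes named are the members, Vipr1 and Vipr2, the 3 listed genes with the smallest p in each contrast (with Adcy5, Pde10a and Gnal named for being on 2 lists), the 5 genes most like and 3 most opposed to each member, and the genes highest in FS2. On data simulated for stress in females, 199 of 200 genes changed 2-fold were recovered, with 10 false calls among 209. The changed genes were drawn at random from the table, whose common biological coefficient of variation was 8.83%. That of Adcyap1 was 44.4%, so this recovery does not carry over to Adcyap1.

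Same-numbered libraries were checked for pairing: over 30 pairs, deviations from the group means correlated at −0.473 to 0.237, with 5 over 0.1, so the numbers were not taken as pairs. Alternatives were library totals alone, DESeq2 size factors within edgeR, edgeR's robust option, DESeq2 1.42.0, limma 3.58.1 voom with and without quality weights, a mean of at least 5 CPM (11998 genes), a fit on the groups compared, a replicate block, marker scores as covariates, group medians, exact permutation tests, and leaving out each library. The marker scores were means of log2 CPM over the measured markers. Leaving out FS2 and FC3 together was added after seeing the data.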

Additional observations from a re-analysis of the deposited data

Results flagged for a closer look

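In groups of 5, a library was singled out where its gap to the nearest other library exceeded 0.71 of the group's range, which chance alone gives in about 1 of 20 groups. Among the 64 groups checked there were 11 such cases. The groups are not independent, since the marker sums come from the same libraries and FS2 accounts for 6 of the cases. Adcyap1 in FS2 was one of them; FS2 had been named beforehand for its weight on this gene, so its value is a description and is not read against the chance rate. It stood at 16.2 CPM with the nearest other stressed female library at 5.17 CPM, a gap of 0.827 of the range. Vipr2 in MC1 was another, at 9.56 CPM against 6.94 CPM (0.791 of the range).

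The other 9 were summed marker levels. FS2 stood above the other stressed females for glutamatergic markers (83.8 against 39.4 CPM), thalamic markers (336 against 210 CPM), hypothalamic markers (84.0 against 32.7 CPM), the cortical gene Tbr1 (24.1 against 10.2 CPM) and choroid plexus markers (118 against 86.4 CPM). The choroid plexus sum covered 3 of 7 listed genes and was mostly Prlr, at 86.1 CPM in FS2 (rank 1 of 20). The others were not raised alike, since Kl ranked 7 and Clic6 15 of 20 in FS2. MS3, which held the least Adcyap1, lay below the other stressed males for glutamatergic (25.7 against 39.6 CPM), thalamic (173 against 212 CPM) and microglial markers (341 against 371 CPM). FC2 lay below the other control females for endothelial markers (198 against 219 CPM).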

How the results depend on the processing

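Over 201 alternative fits for each member, neither was called at an adjusted p of 0.05. The lowest adjusted p was 0.146 for Adcyap1 (stress averaged over the sexes, without FS2) and 0.130 for Adcyap1r1 (sex in controls, with the thalamic and septal score as a covariate). Leaving aside differences of group medians, the sign differed from the main one in 19 fits of Adcyap1 and in 7 of Adcyap1r1. By group medians, Adcyap1 also turned for sex in controls (males 6.57 CPM, females 5.56) and for sex in stressed mice (males 5.49, females 4.56). The median-based interaction of Adcyap1 turned as well. Adcyap1r1 turned by medians to −0.0105 for stress averaged over the sexes. For sex in controls, Adcyap1 gave 0.16 with limma-voom, 0.19 with quality weights, 0.0007 in the fit of the groups compared, 0.35 with the thalamic and septal covariate and 0.38 without FS2 and FC3, while the striatal covariate gave −0.92 (adjusted p = 0.196, edgeR), the largest shift of this result. With the striatal covariate it gave 0.64 for stress in males, 0.80 for the interaction and 0.24 for stress averaged over the sexes. Without FS2 and FC3 its sex difference in stressed mice was 0.36. Adcyap1r1 turned to 0.0552 for stress in males and 0.0131 for the interaction with the striatal covariate, and without FS2 and FC3 to −0.0014 for stress in females and −0.0103 for stress averaged over the sexes. The causes of these changes were not tested.

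Leaving out 1 library at a time, Adcyap1 ranged from −0.85 to 0.34 for stress in females, −0.61 to −0.21 for stress in males, −0.24 to 0.37 for sex in controls, −0.66 to 0.36 for sex in stressed mice, −0.80 to 0.38 for the interaction and −0.66 to −0.06 averaged over the sexes. Adcyap1r1 ranged from 0.01 to 0.07, −0.043 to 0.0056, 0.08 to 0.12, 0.0093 to 0.06, −0.09 to −0.03 and −0.0022 to 0.0262 in the same order. The correlation of the members turned to −0.19 without FS2 and MS3.

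The count of listed genes called for sex in controls, 1 in the main fit, was 4 with library totals alone, 9 with DESeq2, 0 with limma-voom, 14 with quality weights, 12 in the fit of the groups compared, 3 with the striatal covariate, 19 with the thalamic and septal covariate, 9 without FS2 and FC3, and 0 to 7 without 1 library (7 without FS2). For stress in males, 0 in the main fit, it was 7 with DESeq2, 4 with quality weights, 11 in the fit of the groups compared, 22 with the thalamic and septal covariate, 10 without FS2 and FC3, and 0 to 9 without 1 library (9 without FS2, 2 without MS5). For the interaction it was 1 with DESeq2, 1 with the striatal covariate and 11 with the thalamic and septal covariate, and for stress in females 1 with the striatal covariate. Averaged over the sexes it was 0 to 2 without 1 library (2 without FS2). The share of all genes called in these alternative fits is not given here. The counts therefore do not show whether the listed genes differed from the rest of the genes in any of them.

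With the replicate block, Adcyap1 gave −0.24 for stress in females, −0.50 in males and −0.26 for the interaction, and Adcyap1r1 0.04, −0.02 and −0.06. The block took the listed genes called for sex in controls from 1 to 0.

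The intervals of Adcyap1 go with a biological coefficient of variation of 44.4%, against 12.1% for genes of its level, and span about a 2-fold change in either direction for stress in females.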
